A study of Mus musculus with 8 samples.

Results

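The response of mouse bone marrow-derived macrophages (BMDMs) that carry the nuclear receptor coactivator gene Ncoa6 to lipopolysaccharide (LPS) followed by monosodium urate (MSU) crystals was measured by RNA sequencing. Every gene whose rounded counts summed to at least 10 over the 8 libraries of the series was included, which gave 17625 of 50615 genes, and the stimulated and unstimulated BMDMs made up 4 of the 8 samples. All BMDMs were from C57BL/6 mice that were Ncoa6 fl/fl without a Cre transgene, a genotype named WT in the sample labels and Flox in the column headers, and the age and sex of the mice are not given in the sources used here. Marrow cells of the tibia and femur were cultured for 6 days in macrophage colony-stimulating factor (M-CSF) at 20 ng/ml. In the LPS + MSU group (n = 2), priming with 100 ng/ml LPS lasted 4 h and was followed by 2 h of MSU at 200 µg/ml, and the comparison group (n = 2) received medium alone. The libraries of a group came from different mice, and whether a replicate number stands for the same mouse in both culture conditions is not given in the sources used here. The other 4 libraries came from Ncoa6-KO BMDMs, in which Cre under the myeloid LysM promoter deletes the floxed gene, received the same treatments, and entered the gene filter, the scaling and the shared estimate of replicate spread. No library that received LPS alone or MSU alone was analysed here, so the contributions of the LPS and the crystals cannot be told apart, and genotype was not compared.

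LPS, a cell wall component of Gram-negative bacteria, is sensed at the macrophage surface by CD14, MD-2 (Ly96) and Toll-like receptor 4 (TLR4). The adaptors MyD88 and TRIF (Ticam1) then activate NF-kB, MAP kinases and interferon regulatory factors, and secreted interferon beta acts back on the cells through its receptor and STAT proteins. In the textbook sequence this first signal raises NLRP3 and pro-IL-1β, and MSU crystals, the cause of gout, then trigger assembly of the NLRP3 inflammasome, a step of protein assembly and cleavage that RNA levels do not show.

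Most of the tested genes were called changed in the main fit, but not in DESeq2, which called 8498 of 17625. At a Benjamini-Hochberg adjusted p under 0.05 in edgeR's quasi-likelihood test, 9737 of 17625 genes were called (55.2%), of which 4362 were higher with LPS + MSU (24.7% of all genes) and 5375 were lower (30.5%). With DESeq2's size factors in the same test the order turned, with 4973 higher and 4730 lower. The rises were larger than the falls, with a median log2 fold change of 1.50 among genes called higher and -1.11 among genes called lower. Past a log2 fold change of 1 in size, 2753 genes rose (15.6%) and 2973 fell (16.9%). Past 3, the rises (1013 genes) outnumbered the falls (534 genes), and past 8 there were 64 rises and 5 falls. The median over all 17625 genes was -0.12. Replicates resembled each other closely, with Pearson's r across genes of 0.992 for the medium pair and 0.988 for the LPS + MSU pair on the log2 CPM scale. The groups did not overlap for 6178 of all tested genes in the higher direction (35.1%) and for 7664 in the lower direction (43.5%), and of these 4358 and 5375 were called.

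**Figure D1:**
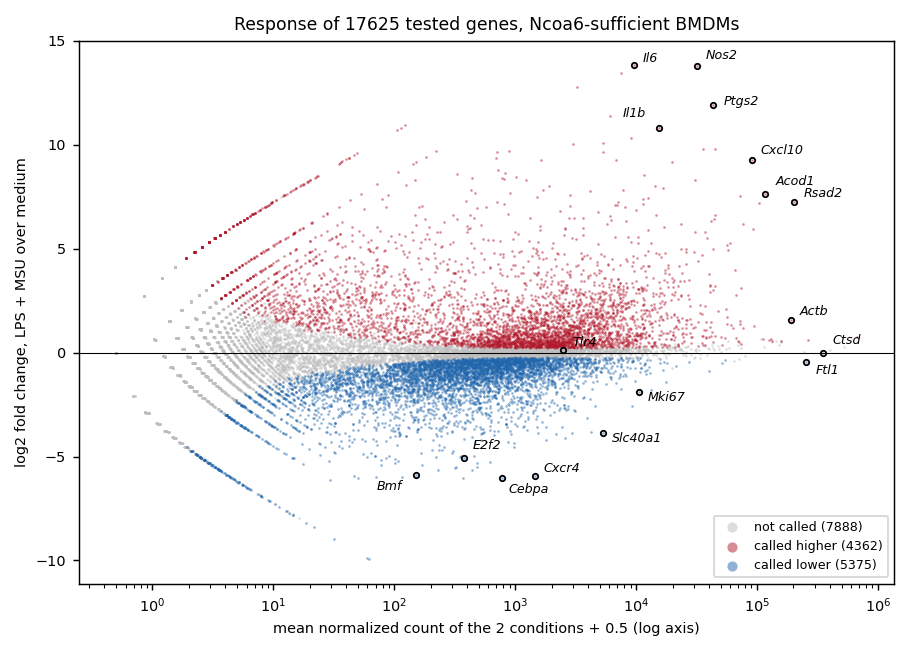
Each point is 1 of the 17625 genes, with its mean normalized count over the 4 libraries on a log axis (x) and its log2 fold change, LPS + MSU over medium, on the y axis. The 4362 genes called higher reach a log2 fold change of 13.82, the 5375 called lower reach -9.93, and the largest rises extend further from 0 than the falls at high counts.

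The libraries were deeply and evenly sequenced, with total counts of 31751186 and 27356093 in medium and 27645362 and 26970368 with LPS + MSU, which bound the precision for low genes: 3 counts correspond to 0.0945 to 0.111 CPM, the counts scaled to library size. Between 18151 and 18936 genes were detected in each of the 4 libraries. RNA composition shifted with stimulation. The genes that rose by more than 1 on the log2 scale took 12.9% and 12.4% of counts in medium but 43.7% and 41.3% with LPS + MSU, while the genes that fell by more than 1 went from 8.36% and 8.31% to 1.58% and 1.72%. Trimmed-mean (TMM) factors were 1.23 and 1.25 in medium against 0.766 and 0.790 with LPS + MSU. Without them, on library totals alone, the median over all genes moved from -0.12 to -0.78, and calls split into 2498 higher and 9653 lower, so 20.6% of the called genes were higher in place of 44.8%. Unless another scaling is named, all log2 fold changes from here on are on the TMM scale. On it the all-gene median was -0.12. Sums in CPM, shares of counts and length-corrected levels use library totals without the TMM factors. Counts of list members called can be read beside the 24.7% of all genes called higher and the 30.5% called lower. Normalized counts are counts scaled to a common library of 29332189.

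**Figure D2:**
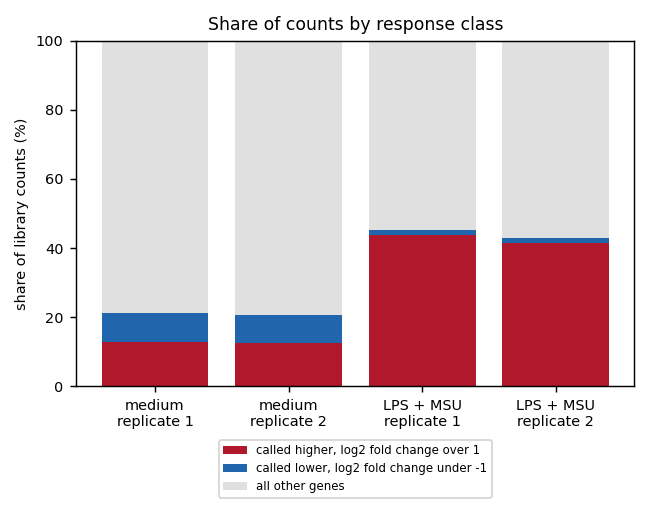
Stacked bars give the share of each library's counts, in percent, taken by genes called higher with a log2 fold change over 1, by genes called lower with one under -1 and by all other genes, in the 2 medium and 2 LPS + MSU libraries. Genes that rose by more than 1 on the log2 scale took 12.9% and 12.4% of the counts in medium and 43.7% and 41.3% with LPS + MSU, while those that fell by more than 1 shrank to 1.58% and 1.72%.

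The cells had the transcripts of macrophages in both conditions. The 15 macrophage markers were measured in every library, with a summed level of 28278 and 25048 CPM in medium and 20195 and 18789.9 CPM with LPS + MSU. These sums carry no TMM factors. On the TMM scale 5 of the 15 markers were called higher (33.3%) and 4 lower (26.7%), beside 24.7% and 30.5% of all genes. Their median log2 fold change was 0.02, and -0.66 on library totals. Lysozyme (Lyz2) stood at 272098 and 209893 normalized counts in medium and 270329 and 217335 with LPS + MSU and was not called (log2 fold change 0.02, adjusted p = 0.939), as was also the case for Cd68 (0.24). Adgre1, which encodes F4/80, rose from 32821 and 28908 to 85784 and 76883 normalized counts. Csf1r, the M-CSF receptor, stood at 58788 and 63965 normalized counts in medium and 44492 and 51396 with LPS + MSU (-0.36), a small fall whose call was lost without LPS + MSU replicate 1 (-0.21), without medium replicate 1 (-0.42) and without medium replicate 2 (-0.29), and also with DESeq2 size factors (-0.24), in DESeq2 (-0.24) and with the 4 compared libraries alone (-0.32).
Defining markers of most other cell types were low or below the filter, and their summed levels are given here. Neutrophil markers summed to 51.2 and 54.3 CPM in medium and 93.8 and 104 CPM with LPS + MSU, most of it the receptor Csf3r, and Ly6g did not reach 10 counts. B-cell markers summed to at most 17.7 CPM and T- and NK-cell markers to at most 6.80 CPM, with Ms4a1, Cd3e and Cd8a below the filter. Dendritic-cell markers summed to 319 and 196 CPM in medium and 559 and 409 CPM with LPS + MSU, nearly all from Bst2 and Itgax, which macrophages also express. Endothelial markers summed to 146 and 169 CPM in medium and 215 and 252 CPM with LPS + MSU: Vwf (von Willebrand factor) made up most of the medium sums and fell (-0.59, a call lost without LPS + MSU replicate 1 at -0.31 and without medium replicate 2 at -0.51), Kdr, a receptor of vascular endothelial growth factor, rose from 499 and 674 to 6214 and 6679 normalized counts (3.46), and Emcn and Cldn5 were below the filter. Stromal markers summed to 28.0 and 25.9 CPM in medium and 33.3 and 32.0 CPM with LPS + MSU, osteoclast markers to 170 and 149 CPM and 87.9 and 80.6 CPM, and mast-cell and basophil markers to at most 14.9 CPM in medium and at most 1.33 CPM with LPS + MSU. Most of the last sum in medium was Kit, the stem cell factor receptor, which fell (-3.22). Erythroid markers summed to at most 0.945 CPM. The part of these cells in the results was not tested, and in bulk RNA fewer cells of a type and less RNA per cell cannot be told apart.

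**Figure D3:**
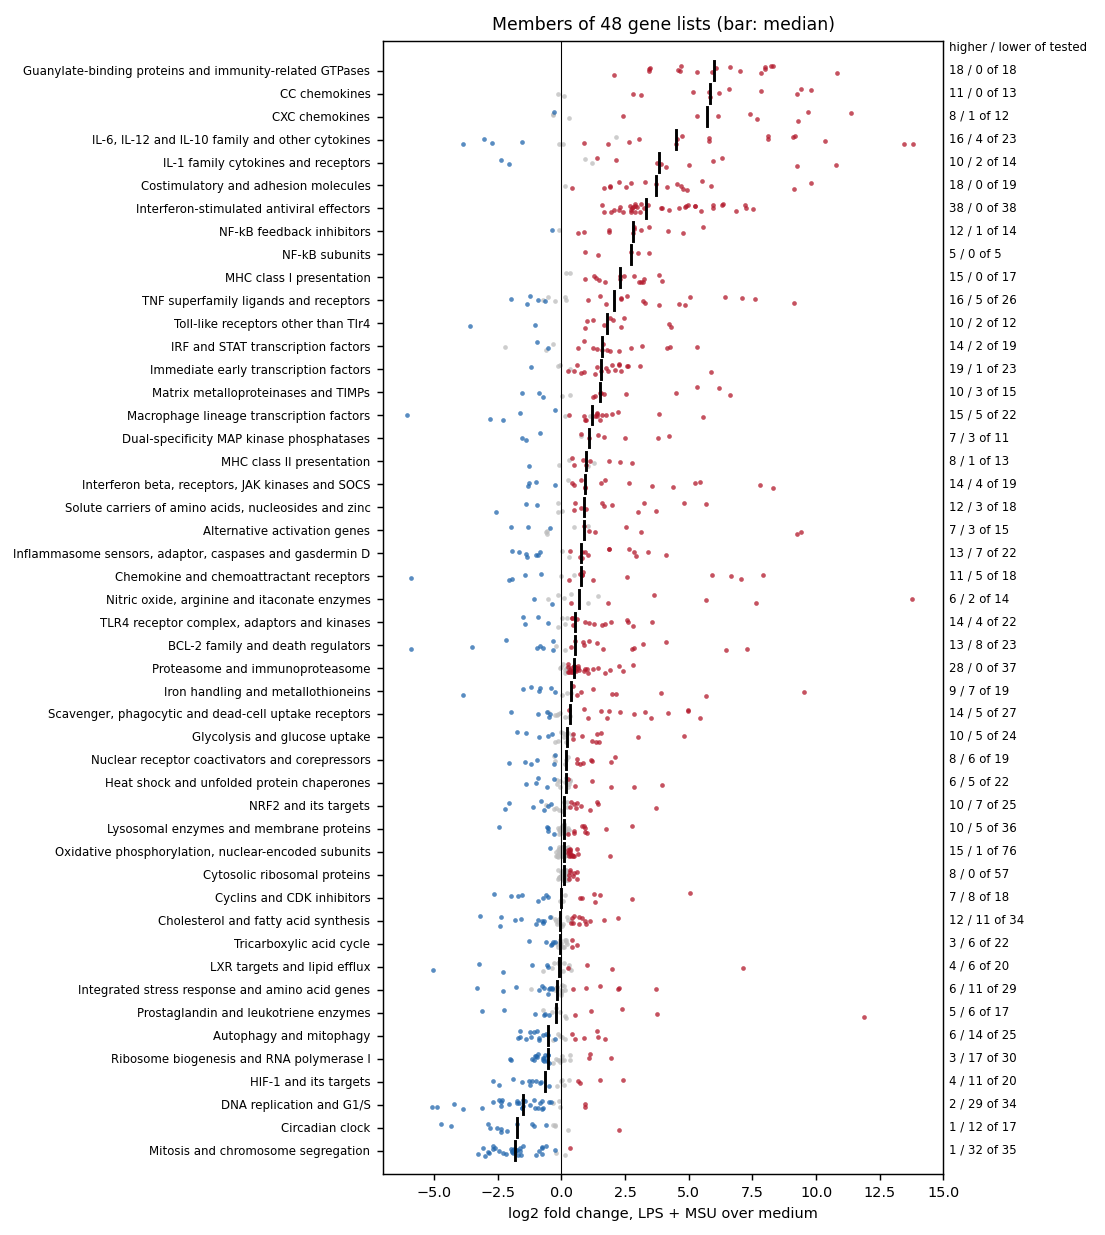
Each point is a member of 1 of 48 gene lists at its log2 fold change, LPS + MSU over medium (x), red where called higher, blue where called lower and grey where not called, with a bar at the list's median and the counts of members called higher and lower at the right. Guanylate-binding and immunity-related GTPases, CC chemokines and CXC chemokines have the largest medians (5.97, 5.82 and 5.72), and mitosis (-1.81), the clock (-1.73) and DNA replication (-1.52) the lowest.

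Among the components that sense LPS, the co-receptor gene and several downstream kinase genes rose while Tlr4 was not called. Of 22 tested members of the TLR4 complex, its adaptors and kinases, 14 rose and 4 fell, with a median log2 fold change of 0.54 that became -0.14 on library totals. Tlr4 stood at 2516 and 2243 normalized counts in medium and 2805 and 2378 with LPS + MSU, so the groups overlapped (log2 fold change 0.12, SE 0.13, adjusted p = 0.466). Cd14, which passes LPS to TLR4, rose from 8612 and 7115 to 47294 and 46004 normalized counts (log2 fold change 2.57, SE 0.16, adjusted p = 1.1e-07). The kinase genes Irak2 (3.54) and Ikbke (2.80) and the adaptor Myd88 (2.62) rose the most of the cascade. In the opposite direction, Irak4 (-0.92), Tab1 (-1.44) and the ubiquitin ligase gene Traf3 (-1.52) fell. Among the other Toll-like receptors and their partners, 10 of 12 rose, with the double-stranded RNA sensor Tlr3 rising from 691 and 802 to 15094 and 12952 normalized counts (4.23) and the lipoprotein sensor Tlr2 from 2697 and 2862 to 13362 and 17266 (2.46). Tlr13, a sensor of bacterial ribosomal RNA, fell (-1.04), and the flagellin receptor Tlr5 fell from 30 and 15 raw counts to 2 and 0, a ratio of 13.1 (95% counting interval 3.41 to 111).

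The NF-kB subunits and their own inhibitors rose together. All 5 subunits rose, Nfkb2 by 3.43 and Nfkb1 by 3.01 on the log2 scale and Rela least (0.91). Of 14 feedback inhibitors, 12 rose and 1 fell, with a median of 2.82. Tnfaip3, which encodes the ubiquitin-editing enzyme A20, stood at 1141 and 1063 normalized counts in medium and 30605 and 29203 with LPS + MSU, all LPS + MSU values being far above all medium values (log2 fold change 4.76, SE 0.12, adjusted p = 3.1e-10). Nfkbia, which encodes IκBα and is itself an NF-kB target, stood at 1374 and 1295 normalized counts in medium and 25167 and 22923 with LPS + MSU (4.17), and Nfkbiz, a nuclear IκB that helps induce secondary genes, rose most of the list (5.56). Of 23 immediate early genes, most of them for transcription factors, 19 rose, such as Nr4a3 (5.87), Junb (2.35), Myc (2.26) and the mRNA decay factor gene Zfp36 (3.10). Of the MAP kinase phosphatases, Dusp2 (4.21) and Dusp1 (3.78) rose and Dusp3 (-1.56) and Dusp7 (-1.41) fell. Dusp1 was uneven between replicates, at 8128 and 4927 normalized counts with LPS + MSU.

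Cytokine genes were among the largest rises. Il6 (ENSMUSG00000025746, chr5:30013114-30019981, plus strand) had 3 and 0 raw counts in medium against 13240 and 14494 with LPS + MSU, a ratio of 15929 (95% counting interval 5450 to 77246). Il12b, the p40 subunit of interleukins 12 and 23, had 2 and 1 counts against 11375 and 10177, a ratio of 12378 (4235 to 60029). The intervals cover counting error only and depend on the few medium counts. Il1b (ENSMUSG00000027398, chr2:129364570-129371139, minus strand), the substrate of caspase-1, stood at 18.8 and 15.5 normalized counts in medium and 31995 and 29707 with LPS + MSU (log2 fold change 10.80, SE 0.18, adjusted p = 1.4e-10). Both stimulated libraries lay far above both unstimulated ones, which held few reads of the gene. Il1a stood at 24.0 and 20.6 normalized counts in medium and 13725 and 13660.1 with LPS + MSU (9.25). The natural antagonist Il1rn rose from an already measurable 1908 and 1266 to 63118 and 37978 normalized counts (4.99), and Il18, another caspase-1 substrate, from 188 and 151 to 2857 and 2957 (4.10). Of the 14 tested members of the IL-1 family and its receptors, 10 rose and 2 fell: the inhibitory receptor Sigirr (-2.07) and the IL-33 receptor Il1rl1 (-2.36).

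Among the other cytokines, 16 of 23 rose and 4 fell. Il27 rose from 21 and 14 raw counts to 15077 and 11269 (10.33). Il10, an anti-inflammatory cytokine, rose from 38.3 and 32.7 to 2634 and 1306, the LPS + MSU replicates lying apart (5.78, SE 0.35). Csf1, the macrophage growth factor supplied in the culture, rose from 678 and 727 to 15051 and 16383 normalized counts (4.48), and Il15 from 373 and 369.9 to 9729.7 and 10046 (4.73). The granulocyte growth factor Csf3 had 0 and 1 counts in medium against 226 and 211, a ratio of 753 (134 to 29808). Il23a was not called, at 0 and 4 counts against 7 and 4. The 4 that fell were Il6ra (-3.03) and Il6st (-2.71), the chains of the IL-6 receptor, the chemoattractant gene Il16 (-3.86) and the angiogenic factor gene Vegfa (-1.53). Of the TNF superfamily, Tnf stood at 1068 and 946 normalized counts in medium and 80733 and 93808 with LPS + MSU (6.44), Cd40 at 72.1 and 66.2 normalized counts in medium and 43987 and 34813 with LPS + MSU (9.15) and Tnfsf10, the death ligand TRAIL, at 93.1 and 99.8 normalized counts in medium and 15372 and 11027 with LPS + MSU (7.10), while Tnfrsf21 (-1.24) and Tnfrsf26 (-1.96) fell.

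Chemokine genes rose to some of the highest transcript levels in the cells. Of 12 CXC chemokines tested, 8 rose and 1 fell, and of 13 CC chemokines, 11 rose and none fell. Cxcl10, a ligand of CXCR3, stood at 249.9 and 330.3 normalized counts in medium and 191127 and 169104 with LPS + MSU (log2 fold change 9.28, SE 0.21, adjusted p = 2.7e-10). Ccl5 stood at 129 and 71.4 normalized counts in medium and 99594 and 79147 with LPS + MSU (9.79) and Ccl3 at 2177 and 1928 normalized counts in medium and 150412 and 150179 with LPS + MSU (6.19). On a scale corrected for transcript length (counts per kilobase of exon, scaled to the same sum in every library), the mean level of Ccl3 went from rank 338 of 13786 protein-coding genes in medium to rank 1 with LPS + MSU. On the same scale Cxcl10 went from rank 6093 to 16 and Ccl5 from 6746 to 13. The LPS + MSU replicates of Cxcl9 lay further apart than those of Cxcl10, Ccl5 and Ccl3, at 17360.5 and 6802 with LPS + MSU against 4.50 and 4.30 in medium (11.38, SE 0.70). The neutrophil chemoattractants Cxcl1 (6.13), Cxcl2 (7.40) and Cxcl3 (7.68) rose, and Ccl6 and Ccl25 were not called. Of the 18 chemokine and chemoattractant receptors, 11 rose (61.1%) and 5 fell (27.8%), beside 24.7% and 30.5% of all genes. On library totals 6 were higher and 7 lower, and the list median went from 0.75 to 0.08. Ccr7, the receptor for lymph-node homing, had 0 counts in both medium libraries and was at least 12.3-fold higher with LPS + MSU. The formyl peptide receptor Fpr2 rose from 47.3 and 36.1 to 5873 and 5367 (7.06). Cxcr4, which retains leukocytes in marrow, fell from 2900.1 and 2819.8 to 52.6 and 41.3 (log2 fold change -5.92, SE 0.18, adjusted p = 1.0e-09).

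**Figure D4:**
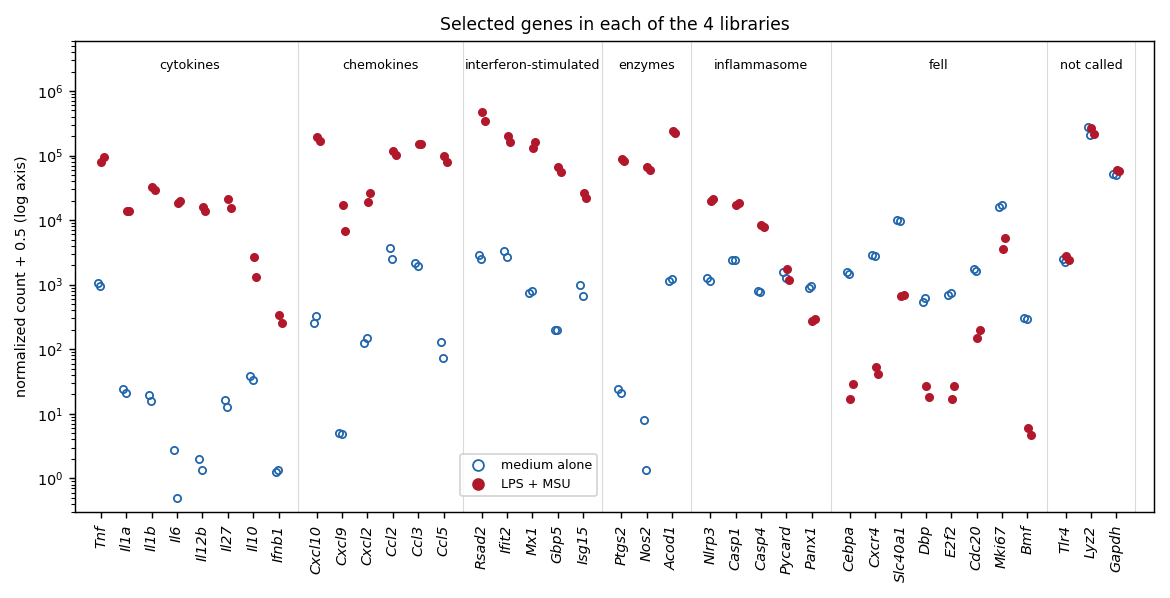
Normalized count of selected genes in each library on a log axis, with 1 point per library in medium and with LPS + MSU, for cytokine, chemokine, interferon-stimulated, enzyme and inflammasome genes, for genes that fell and for genes that were not called. Both stimulated libraries lie above both unstimulated ones for the induced genes and below them for the genes that fell, and the points of Pycard, Tlr4, Lyz2 and Gapdh lie close together.

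The 300 bases around the RefSeq start of induced genes (250 before to 50 after, GRCm38.p6) were searched on both strands for exact letter strings, to show where textbook NF-kB and interferon elements lie. The NF-kB strings GGGANTTTC and GGAATTTCC, counted together because matches can overlap, occur in 1.38% of the promoters of 27025 genes in the table, 1 promoter a gene, and the interferon-stimulated response core GAAANNGAA in 8.57%. Capitals mark the NF-kB string in Il6, Cxcl10 and Ifnb1 and the interferon string in Cxcl9. Cxcl9 also holds an NF-kB string, starting 154 bases before the start, and Cxcl10 an interferon string, starting 213 before. Both are left in small letters. The genes shown were picked among the largest rises that held a string, a choice made after their values were seen. Il6 lies at chr5:30012864-30013163 (plus strand), Cxcl10 at chr5:92348840-92349139 (minus strand), Ifnb1 at chr4:88522745-88523044 (minus strand) and Cxcl9 at chr5:92328030-92328329 (minus strand).
Il6: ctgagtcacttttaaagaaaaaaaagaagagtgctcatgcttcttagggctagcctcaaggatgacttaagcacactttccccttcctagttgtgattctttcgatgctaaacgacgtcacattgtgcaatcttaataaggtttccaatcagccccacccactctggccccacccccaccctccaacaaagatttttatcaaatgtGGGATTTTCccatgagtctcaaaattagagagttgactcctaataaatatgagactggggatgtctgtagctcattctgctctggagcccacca
Cxcl10: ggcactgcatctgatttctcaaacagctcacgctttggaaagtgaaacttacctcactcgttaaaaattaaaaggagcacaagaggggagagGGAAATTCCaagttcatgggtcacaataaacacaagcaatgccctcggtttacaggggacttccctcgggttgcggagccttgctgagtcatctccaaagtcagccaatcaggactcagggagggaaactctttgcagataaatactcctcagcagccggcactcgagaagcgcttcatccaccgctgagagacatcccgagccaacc
Ifnb1: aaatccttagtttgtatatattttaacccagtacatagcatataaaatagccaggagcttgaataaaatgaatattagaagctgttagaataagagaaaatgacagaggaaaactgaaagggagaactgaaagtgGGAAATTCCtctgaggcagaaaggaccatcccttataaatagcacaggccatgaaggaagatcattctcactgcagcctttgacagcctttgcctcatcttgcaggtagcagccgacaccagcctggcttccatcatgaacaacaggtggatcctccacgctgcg
Cxcl9: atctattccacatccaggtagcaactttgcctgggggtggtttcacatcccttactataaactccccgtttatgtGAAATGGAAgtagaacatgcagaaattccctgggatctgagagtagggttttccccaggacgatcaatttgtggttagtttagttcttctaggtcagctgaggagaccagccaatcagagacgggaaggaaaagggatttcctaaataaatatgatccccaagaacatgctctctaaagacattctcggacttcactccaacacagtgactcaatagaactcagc
The NF-kB string starts 44 bases before the start of Il6, 158 before that of Cxcl10 and 115 before that of Ifnb1, and the interferon string of Cxcl9 starts 175 before. These are letter matches and not bound sites, and promoters without them say nothing about the factors. Shares of promoters holding each string were not compared between all rising and all falling genes, since the table covered 76.6% of the protein-coding genes that rose by more than 1 and 78.6% of those that fell by more than 1, under the minimum of 80% set for such a comparison. Of 13 feedback inhibitor promoters, 3 held an NF-kB string. Lower shares were found in other lists: 1 of 13 for the IL-1 family and 1 of 11 for the other Toll-like receptors. The MAP kinase phosphatases had 1 of 10, the chemokine and chemoattractant receptors 1 of 15 and the inflammasome list 1 of 21. Neither string was found in the 16 promoters of IRF and STAT genes.

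Interferon-stimulated antiviral genes and GTPases rose. Ifnb1 itself had 1 count in each medium library against 241 and 184 with LPS + MSU, a ratio of 366 (95% counting interval 100.7 to 3033). All 38 antiviral effectors rose, with a median log2 fold change of 3.32 (2.65 on library totals), and none fell. Rsad2, which encodes the antiviral enzyme viperin, stood at 2847 and 2502 normalized counts in medium and 470767 and 337422 with LPS + MSU (log2 fold change 7.24, SE 0.27, adjusted p = 3.1e-09). Mx1 stood at 751 and 809 normalized counts in medium and 128685 and 161288 with LPS + MSU (7.54) and Ifit1 at 1089 and 958 normalized counts in medium and 85851 and 77509 with LPS + MSU (6.32), and Isg15, a ubiquitin-like modifier, at 985 and 666 normalized counts in medium and 26745 and 22156 with LPS + MSU (4.89). Even the least of the 38, Trim25 (1.59), Bst2 (1.69) and Oas1a (1.95), rose by more than 1. All 18 guanylate-binding proteins and immunity-related GTPases also rose, with the largest list median (5.97), led among those with counts in every library by Gbp5 (8.30), and with Iigp1 going from 134 and 86.9 to 32831 and 24166 normalized counts, while Gbp10 had 0 counts in medium and rose at least 93.2-fold. Of 19 IRF and STAT transcription factors, 14 rose and 2 fell. Irf7 rose from 2857 and 2281 to 52109 and 46624 normalized counts (4.26) and Irf1 from 1973 and 1839 to 17053 and 17184 (3.17), whereas Irf3 (-0.51) and Stat6 (-0.96) fell. Negative regulators rose beside them, Socs3 from 62.3 and 75.7 to 17732 and 13214 (7.81), Socs1 (5.43) and Usp18 (5.26), while Ifngr1 fell (-1.29). Reads of Ifit3 and Ifit3b, Tgtp1 and Tgtp2, the Gbp, Oas1, H2-Q and Bcl2a1 families, and Hspa1a and Hspa1b can be divided between near-identical copies, so the split between such pairs is uncertain.

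Components of the NLRP3 inflammasome rose unevenly. Nlrp3 stood at 1268 and 1155 normalized counts in medium and 20048 and 21346 with LPS + MSU, with both stimulated values above both unstimulated values (log2 fold change 4.09, SE 0.13, adjusted p = 1.1e-09). Casp1 rose from 2423 and 2435 to 17172 and 18203 (2.86), Casp4, which senses cytosolic LPS, from 794 and 756 to 8506 and 7769 (3.39), and the pore-forming protein gene Gsdmd from 1704 and 1546 to 6140.1 and 5787 (1.88). The adaptor gene Pycard, which encodes ASC, was not called at 1548 and 1287 against 1719 and 1195 (log2 fold change 0.04, adjusted p = 0.852), and Nek7, a kinase required by NLRP3, rose by 0.35 on the TMM scale and was called lower on library totals (-0.32). Across the 22 members, 13 rose (59.1%) and 7 fell (31.8%), beside 24.7% and 30.5% of all genes, and on library totals 8 were higher and 10 lower. The genes that fell included the channel gene Panx1 (-1.69), the ATP receptor P2rx7 (-1.36), the sensor Nlrp1b (-1.96) and the adaptor Card9 (-1.38). Among death regulators, 13 of 23 rose (56.5%) and 8 fell (34.8%) with a median of 0.52 that became -0.15 on library totals: Cflar (4.09), Birc3 (2.77) and Mlkl (2.83) rose, and Bcl2 (-2.17) and the BH3-only gene Bmf (-5.90) fell.

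Enzymes that make inflammatory mediators showed some of the steepest rises. Ptgs2 (ENSMUSG00000032487, chr1:150100031-150108227, plus strand), the inducible cyclooxygenase, stood at 24.0 and 20.6 normalized counts in medium and 87696 and 83678 with LPS + MSU (log2 fold change 11.89, SE 0.27, adjusted p = 2.8e-10), and Ptges, the microsomal prostaglandin E synthase, rose with it (3.76). The constitutive Ptgs1 fell (-1.04), as did the degrading enzyme Hpgd (-3.11). Nos2, the inducible nitric oxide synthase, had 10 and 1 raw counts in medium against 48296 and 43741 (log2 fold change 13.78, SE 0.32, adjusted p = 2.8e-10). Acod1, which makes itaconate, stood at 1129 and 1201 normalized counts in medium and 239982 and 221288 with LPS + MSU (7.63), Slc7a2, an arginine carrier, at 104 and 92.0 normalized counts in medium and 5055 and 4872 with LPS + MSU (5.66), and Gch1, needed for the nitric oxide synthase cofactor, rose by 3.62. Arg1 and Arg2 were not called, Arg1 with 2 or 3 raw counts in every library. Steap4, a metalloreductase, had 0 counts in both medium libraries and rose at least 38.1-fold.

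Most class I antigen presentation and T-cell costimulation genes rose. Of 17 class I genes, 15 rose and none fell with a median of 2.30: Nlrc5, the class I transactivator, from 1412 and 1473 to 21403 and 23116 (3.95), the peptide transporter Tap1 (3.82) and B2m (1.36). The interferon-inducible immunoproteasome subunits Psmb10 (2.82), Psmb9 (2.26) and Psmb8 (1.93) and the activator subunit Psme2 (2.41) moved most in the proteasome list, 28 of 37 of which rose with a median of 0.48 that became -0.19 on library totals. Class II genes changed less, with 8 of 13 higher, among them H2-Ab1 (2.31) and its transactivator Ciita (2.77), and 1 lower, H2-DMb2 (-1.26). Their median of 0.98 became 0.31 on library totals, with 3 higher and 3 lower. Of 19 costimulatory and adhesion molecules, 18 rose: Cd69 (9.80), the checkpoint ligand Cd274 (5.52), Icam1 (4.94) and Cd86 (4.16). Uptake receptors split, with the lectin gene Clec4e (Mincle) rising from 2633 and 2639 to 81143 and 86261 (4.99) and Cd163 falling (-1.96), and the list median of 0.35 turned to -0.32 on library totals. Of 15 matrix proteases and their TIMP inhibitors, 10 rose and 3 fell, with Mmp13 rising from 700.2 and 568 to 56437 and 36038 (6.19) and Mmp14 rising by 4.48.

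Metabolic genes were mixed, and for lists near 0 the direction depended on the scaling. Of 24 glycolysis and glucose uptake genes, 10 rose (41.7%) and 5 fell (20.8%), beside 24.7% and 30.5% of all genes. The list median of 0.23 became -0.44 on library totals. The widest moves in the list were those of the carrier Slc2a6 (4.81) and of Pfkfb3 (3.02), which rose, and of the carrier Slc2a3 (-1.75), which fell. Oxidative phosphorylation genes stayed near the all-gene median, with a median of 0.10 that became -0.57 on library totals. Of the 76, 15 were called higher (19.7%) and 1 lower (1.32%), both under the shares of all genes. Of the HIF-1 list, 11 of 20 fell (55%) and 4 rose (20%), beside 30.5% and 24.7% of all genes. P4ha1 (2.43) and Hif1a itself (0.74) were higher and Egln3 (-2.45) was lower. Of 34 cholesterol and fatty acid synthesis genes, 12 rose (35.3%) and 11 fell (32.4%), Scd2 (-3.20) and Dhcr7 (-1.84) among the latter. Ch25h, which makes 25-hydroxycholesterol, rose from 13.5 and 8.60 to 1797 and 1394 normalized counts (7.14). Of 19 iron and metallothionein genes, 9 rose (47.4%) and 7 fell (36.8%), with a median of 0.38 that became -0.28 on library totals. The exporter Slc40a1 (ferroportin) fell from 10106 and 9756 to 669 and 680.3 (-3.88). Of 25 genes of the NRF2 list, 10 rose (40%) and 7 fell (28%), with a median of 0.12 that became -0.55 on library totals. Slc7a11 rose (3.70) while Hmox1 (-1.13) and Gclc (-2.05) fell. Nuclear receptors of lipid metabolism divided as well, Nr1h3 (LXRα) rising (1.98) and Pparg (-2.28) and Rxra (-3.23) falling.

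Most cell division genes fell. Of 35 mitosis genes, 32 fell and 1 rose with a median of -1.81, and of 34 DNA replication genes, 29 fell and 2 rose with a median of -1.52, against 30.5% of all genes lower. The proliferation marker Mki67 stood at 16216 and 17166 normalized counts in medium and 3608 and 5269 with LPS + MSU (log2 fold change -1.91, SE 0.16, adjusted p = 1.7e-06), and Cdc20, an activator of the anaphase-promoting complex, at 1746 and 1604 normalized counts in medium and 147 and 196 with LPS + MSU (-3.29). E2f2, a transcription factor of S-phase genes, stood at 701 and 753 normalized counts in medium and 16.6 and 26.2 with LPS + MSU (-5.08), and Cdc6, which licenses replication origins, at 396 and 403 normalized counts in medium and 23.6 and 19.3 with LPS + MSU (-4.21). Pcna was not called (-0.11), but was called lower on library totals (-0.78). Cenpe, the 1 mitosis gene called higher (0.34), was called lower on library totals (-0.33) and lost its call without medium replicate 1 (0.33). The list of cyclins and cell cycle inhibitors was split, with 7 of 18 higher (38.9%) and 8 lower (44.4%) and a median of -0.01. The inhibitor Cdkn1a (p21) rose from 4440.1 and 4283 to 28692 and 30072 (2.75), while the inhibitors Cdkn1b (-1.70) and Cdkn2c (-1.99) fell. The cyclin gene Ccnd2 rose from 85.6 and 76.6 to 3214 and 2198 (5.06), and Ccnd1 fell (-0.93).

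Letter strings linked in textbooks to cell cycle control were searched in the same RefSeq promoters: the E2F strings TTTGGCGC and TTTCCCGC, found in 1.63% of all promoters, and the cell cycle homology string TTTGAA, found in 18.1%. Of 30 mitosis promoters, 23 held TTTGAA (76.7%), and of 28 DNA replication promoters, 10 held an E2F string (35.7%). The promoters of E2f2 (chr4:136172024-136172323, plus strand, E2F string in capitals, starting 39 bases after the start) and Cdc20 (chr4:118437294-118437593, minus strand, TTTGAA in capitals, 18 bases before the start) are shown as the genes with the largest falls that held the E2F string within the DNA replication list and TTTGAA within the mitosis list, a choice made after their values were seen.
E2f2: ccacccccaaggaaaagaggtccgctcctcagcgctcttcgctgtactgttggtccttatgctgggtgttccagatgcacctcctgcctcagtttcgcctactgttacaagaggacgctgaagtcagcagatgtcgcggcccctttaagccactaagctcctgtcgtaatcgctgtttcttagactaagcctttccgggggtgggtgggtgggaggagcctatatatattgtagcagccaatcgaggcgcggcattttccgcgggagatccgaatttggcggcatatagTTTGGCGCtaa
Cdc20: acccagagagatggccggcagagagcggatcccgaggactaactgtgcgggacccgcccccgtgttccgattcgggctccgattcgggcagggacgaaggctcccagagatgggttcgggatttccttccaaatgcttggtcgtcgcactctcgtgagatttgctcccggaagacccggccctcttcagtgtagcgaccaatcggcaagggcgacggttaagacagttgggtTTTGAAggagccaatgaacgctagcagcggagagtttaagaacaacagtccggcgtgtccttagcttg
The letters were matched without regard to position or binding, and a gene lacking them was not read as lacking the factor.

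Genes that fell included a transcription factor of the myeloid lineage. Cebpa (ENSMUSG00000034957, chr7:35119293-35121928, plus strand), a transcription factor of the myeloid lineage, gave the largest fall among genes that averaged at least 50 normalized counts with more than 3 raw counts in each library, clone names left out, from 1572 and 1472 to 16.6 and 28.9 normalized counts, 1.51% of its medium level (log2 fold change -6.05, SE 0.23, adjusted p = 3.0e-09). Cebpd (3.82), Spi1 (1.40) and Maf (0.95) rose, and of the 22 lineage factors 15 rose and 5 fell. Others among the 15 largest falls were Lpin1, a phosphatidate phosphatase (-5.63), the cannabinoid receptor gene Cnr2 (-5.51), the lysophosphatidic acid receptor gene Lpar5 (-5.42), Rasgrp3 (-5.50) and Fbxo5, an inhibitor of the anaphase-promoting complex (-5.02). Clock genes fell in 12 of 17 cases, Dbp from 546 and 629.7 to 26.3 and 17.9 (-4.72) and Nr1d1 from 184 and 293 to 33.2 and 31.7 (-2.87), while Nfil3 rose (2.24). The fractalkine receptor gene Cx3cr1 fell (-1.96). Of the nuclear receptor coactivators, Ncoa6 was not called, at 1515 and 1405 against 1297 and 1173 normalized counts (log2 fold change -0.24, adjusted p = 0.102). On library totals Ncoa6 was called lower (-0.91). It was also called lower with a replicate block across all groups (adjusted p = 0.0304) and within each genotype (adjusted p = 0.0131). Ncoa7 rose (1.96) and Ncoa2 (-1.45) fell.

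Protein synthesis machinery was split between components. Cytosolic ribosomal protein genes were close to level, with 8 of 57 called higher and none lower and a median of 0.09 that became -0.58 on library totals. Of 30 genes of ribosome biogenesis and RNA polymerase I, 17 fell and 3 rose, with Wdr12 (-2.02) and Polr1b (-1.99) lowest and Wdr43 rising (1.95). Of 25 autophagy genes, 14 fell (56%) and 6 rose (24%), beside 30.5% and 24.7% of all genes. The initiating kinase Ulk1 fell (-1.71), and the receptor Sqstm1 (p62) rose from 16045 and 15267 to 35842 and 45912 normalized counts (1.38). Of the lysosomal genes, Ctsc rose (2.76) and the regulator Tfeb fell (-2.45), and the list median of 0.10 became -0.57 on library totals.

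Stress and transport genes moved in parts. Of 29 genes of the integrated stress response and amino acid supply, 11 fell (37.9%) and 6 rose (20.7%), beside 30.5% and 24.7% of all genes. Trib3, a pseudokinase induced by ATF4, fell from 287 and 282 to 31.9 and 24.8 normalized counts (-3.32), and Chac1 from 74.3 and 61.9 to 13.9 and 13.8 (-2.29). Ppp1r15a, which encodes the phosphatase subunit GADD34, rose from 896 and 996 to 4048 and 4925 (2.25). Among chaperones, Hspa5 (BiP) rose from 38205 and 38141 to 85947 and 88925 (1.20) and the endoplasmic reticulum chaperone gene Dnajb9 fell from 822 and 858 to 342 and 306 (-1.37). Of 18 solute carriers, 12 rose and 3 fell. The peptide carrier gene Slc15a3 rose from 8143 and 7242 to 75102 and 71621 (3.25), the nucleoside carrier gene Slc28a2 from 1710.5 and 1843 to 50547 and 49816 (4.82), and the amino acid carrier gene Slc43a2 fell from 16377 and 15109.7 to 2357 and 2937 (-2.57).

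The share of counts moved between abundant genes. The 10 genes with the largest gain in share took 0.537% and 0.469% of counts in medium and 5.60% and 5.11% with LPS + MSU. They were Rsad2, Acod1, Actb, Cmpk2, Ifit2, Cxcl10, Ccl3, Mx1, C3 and Parp14. Complement C3, the central component of the complement cascade, stood at 3125 and 2897 normalized counts in medium and 111172 and 121131 with LPS + MSU (5.27), and Cmpk2, a mitochondrial nucleotide kinase, at 1358 and 1436 normalized counts in medium and 222941 and 188990.0 with LPS + MSU (7.20). Actb, often used as a reference gene, rose from 104530.0 and 89214 to 306991 and 260347 (1.55), while Gapdh was not called, at 52464 and 50389.8 against 60714 and 57114 (0.20). The 10 genes with the largest loss took 10.3% and 9.76% in medium and 6.34% and 6.30% with LPS + MSU. Of those 10, the protease gene Adam8 (-0.89) and Ftl1, the ferritin light chain gene (-0.43), were called lower on the TMM scale, the call of Ftl1 being lost when any 1 of the 4 libraries was left out (-0.43 to -0.35), and the other 8, among them the lysosomal genes Ctsd, Ctsb and Psap, were not called.

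**Figure D5:**
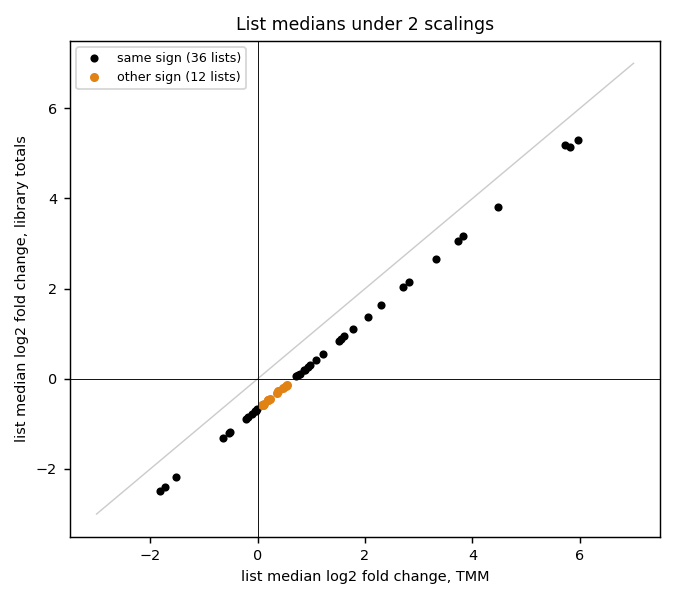
Each point is 1 of 48 gene lists, with its median log2 fold change on the TMM scale (x) against that on library totals alone (y) and a line of equality. All lists lie below the line, 36 keep their sign, and the 12 that change sign have TMM medians between 0.09 and 0.54.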

How the data were processed

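BMDMs from 4 samples of Ncoa6-sufficient mice (2 with LPS + MSU, 2 in medium alone) were compared, and 4 Ncoa6-KO samples entered the same fit. The authors aligned reads and deposited expected counts per gene; the submitters' processing notes name STAR 2.7.3a, RSEM 1.3.3, DESeq2 and MultiQC with genome build GRCm38, and no per-sample column was left unused (0). Between 8.36% and 9.59% of the values in a library were not whole, and all were rounded here. Symbols were found for 50374 of 50615 gene identifiers. Genes with rounded counts summing to at least 10 over the 8 libraries were tested with edgeR 4.0.16 in R 4.3.3 (TMM factors, 1 group per genotype and treatment, 4 residual degrees of freedom, quasi-likelihood test, Benjamini-Hochberg adjusted p under 0.05). limma 3.58.1 and DESeq2 1.42.0 were alternatives. The median biological coefficient of variation was 0.114. An exact permutation test of 2 libraries against 2 could not go below p = 0.333, so none was used. RSEM divides reads that map to several genes, which makes near-identical copies uncertain.

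The members, the gene lists and the tests were chosen with earlier results of these data known. Genes were named by rule: the 15 largest rises and 15 largest falls whose normalized counts averaged 50 or more and whose raw counts were above 3 everywhere, the 10 largest with at most 3 counts in each library of a condition, the 10 largest gains and losses in share of counts, the largest rises and falls in each list, and a fixed set of genes of LPS and inflammasome biology. Other genes named were chosen after their values were seen. Some genes named by these rules are not reported here. Where a condition had 0 counts, the fold was taken against 3 counts and given as a bound, and where it had 1 to 3, the pooled ratio is given with an exact 95% interval. Floors and intervals cover counting error only. Promoters came from RefSeq and were matched by symbol. The scripts were tested on simulated data in which few genes changed, equally often up and down. That test does not check the scaling under a shift in RNA composition like the one seen here.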

Additional observations from a re-analysis of the deposited data

How the results depend on the processing

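Over 14 alternatives, the number of genes called stayed within 1.5 times of 9737. Library totals in place of TMM factors moved the direction of the calls, to 2498 higher and 9653 lower, with 1822 rises and 6176 falls past 1 on the log2 scale. Leaving out 1 library gave 8250 to 8510 calls, 3732 to 4038 of them higher and 4253 to 4597 lower. The excess of falls over rises also turned with DESeq2 size factors in edgeR (4973 higher, 4730 lower; 3004 and 2617 past 1) and in DESeq2 (8498 calls, 4452 higher and 4046 lower; 2682 and 2297 past 1), where 1367 adjusted p-values were missing. Past 1 it turned with the 4 compared libraries alone (17612 genes tested, 2784 and 2758) and without LPS + MSU replicate 1 (2627 and 2465). limma-voom called 9828. On library totals 10 named genes turned to lower: Ccl6 (-0.55), Cd68 (-0.43), Cenpe (-0.33), Ctsb (-0.38), Gapdh (-0.48), Lyz2 (-0.66), Nek7 (-0.32), Psap (-0.58), Pycard (-0.63) and Tlr4 (-0.55). Hif1a (0.07) and Maf (0.28) lost their calls there. Ncoa6 (-0.91), Ccl25 (-0.81), Pcna (-0.78) and Ctsd (-0.71), not called on the TMM scale, were called lower there. The shift of the all-gene median, from -0.12 to -0.78, is the size of these moves.

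A replicate block across all groups called 10225 genes and a replicate block within each genotype 10609. Across all groups it called Ncoa6 (-0.24), Cd68 (0.25), Ctsb (0.29) and Arg2 (1.50), which were not called without it, and within each genotype also Gapdh (0.20). The correlation of deviations from the group mean between samples with the same number was 0.123 in the Ncoa6-sufficient and 0.153 in the Ncoa6-KO BMDMs. Between genotypes it was lower, at 0.00595 to 0.0494. In Ncoa6-sufficient BMDMs, mitochondrial genes took 3.89% (medium) and 4.14% (LPS + MSU) of counts in replicate 1. In replicate 2 they took 6.28% and 6.10%. The main fit used no pairing because the sources used here do not state one, and whether the numbers pair the samples was not tested. With 2 libraries a group, genes with few counts in both conditions carry little evidence in either direction, and a p that missed the threshold does not show equal levels. No test separates LPS from MSU, or RNA per cell from the number of cells.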

Other observations

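Some of the genes that rose lay next to each other. Taking the tested protein-coding genes in genome order (GRCm38), and after their values were seen, runs of at least 4 neighbours all called in the same direction past 1 on the log2 scale were listed, and there were 52 runs of higher and 36 of lower genes. A run of 12 from Irgm1 to Olfr1395 on chromosome 11 held immunity-related GTPases such as Ifi47 and Tgtp2. Other runs held the Slfn genes (7 genes, chromosome 11), the Oas genes (7, chromosome 5), the Ms4a genes (7, chromosome 19), the Ifit genes (6, chromosome 19) and the Gbp genes (5, chromosome 3). Neighbours in such runs are often related copies whose reads can be divided between them, and the part of this was not tested.

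Of 424 tested genes named as zinc finger proteins, 132 fell by more than 1 on the log2 scale and 20 rose by more than 1, beside 16.9% and 15.6% of all genes. The median span of a gene was 27.0 kb for rises past 1, 24.2 kb for falls past 1 and 19.7 kb for genes not called. With the genes split into 4 classes of mean count, the medians for rises and falls were 27.6 and 29.8 kb in the third class and 30.0 and 31.2 kb in the highest, so their order turned there. In the lowest class falls (19.2 kb) were shorter than genes not called (19.9 kb). Both observations were made after the values were seen.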
